A study of Mus musculus with 6 samples.

Results

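The genes described here are 52 genes of the transforming growth factor beta (TGF-beta) and bone morphogenetic protein (BMP) pathways, taken by gene symbol from a deposited table of 37309 mouse genes. They comprise 16 ligands, 12 receptors and co-receptors, 7 Smads, 7 antagonists, 4 latency proteins and 6 response genes, and each of the 52 symbols was found on 1 row of the table. RNA was sequenced from cultured vascular smooth muscle cells of the descending aorta of the Immorto mouse. There were 3 libraries of cells kept for 3 days with 50 uM of DAPT, which inhibits the protease gamma-secretase, and 3 libraries of cells kept with its vehicle, DMSO. The cells of both groups carry the transgene of that strain, a conditional large T antigen of simian virus under an interferon-inducible MHC class I promoter, which keeps cells dividing in culture. The labels do not say whether the libraries of a group came from separate cultures or animals, so the p-values below measure the spread between these samples, which may be technical.

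Ligands of the TGF-beta family are secreted dimers that bring together type I and type II receptor kinases at the cell surface. TGF-betas and activins signal mainly through Smad2 and Smad3, and BMPs through Smad1, Smad5 and Smad9, each in complex with Smad4, while Smad6 and Smad7 hold the pathway back. TGF-beta is stored outside the cell in a latent complex with its propeptide and a latent TGF-beta binding protein, which anchors it to fibrillin fibres. In the artery wall the pathway is known for its control of matrix production and of contractile genes, and inherited defects in several of its genes cause aortic aneurysm.

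Values are read counts that the authors divided by 1 size factor per library, called normalised counts below, and library totals lay between 10702548 and 14503665 reads. Levels of different genes are compared only per kilobase of the deposited gene length. Changes are DAPT minus vehicle on the scale of log2(normalised count + 1), folds are taken from the same scale, and a gene passed when its limma adjusted p was below 0.05. Of the markers of smooth muscle, Tagln, Smtn and Acta2 were expressed. Myh11 was at 50.2, 48.4 and 42.6 in DAPT cells, against 51.7, 51.6 and 44.3 in vehicle cells. Lmod1 was at 32.4 to 58.4, Des at 22.6 to 38.9 and Cnn1 at 2.10 to 21.3 over all 6 libraries. Kcnmb1 and Pln were at 0 in all 6 libraries, as was Myocd in 4 of them. The endothelial markers Pecam1, Cdh5, Tie1, Cldn5 and Emcn were at no more than 3.54 in any library, while the others on that list were expressed, Kdr at 513 to 562, Tek at 27.3 to 55.2 and Vwf at 16.8 to 31.7. Of the leukocyte markers, Emr1 and Cd3e were at 0, Ptprc was at no more than 0.941 and Itgam at no more than 3.60. Cd68 at 166 to 221, Csf1r at 162 to 198 and Lyz2 at 13.9 to 27.5 were expressed. In such bulk samples fewer cells of a type and less RNA per cell cannot be told apart.

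Under DAPT many genes for secreted members of the pathway were lower. Of 13 tested ligand genes 8 fell, among them Tgfb2, Tgfb3, Inhba, Bmp4 and Gdf6, as did all 4 latency protein genes, follistatin and the response genes Id1, Id3, Id4 and Skil. Tgfbr1 and Acvrl1, which encode type I receptors, and the ligand gene Gdf11 rose, and no Smad gene passed. The 2 receptors are 18.2% of the 11 tested, near the share of all genes tested that passed. Of the 47 members with a normalised count of at least 10 in at least 3 libraries, 22 passed, 3 of them higher and 19 lower under DAPT. Over all 14906 genes tested, 18.1% passed, 9.22% higher and 8.91% lower, against 46.8% of the tested members, and 40.4% of the tested members were lower. The DAPT and vehicle values did not overlap in 27 of the 47, which is 57.4%, against 33.3% of all genes tested. DAPT values lay above in 6 and below in 21 of these, against 16.8% above and 16.4% below over all genes tested. Changes were small: 5 of the 22 reached 1.5-fold and 1 reached 2-fold. The median change of the 47 was -0.03, against 0.0009 over all genes tested. By the authors' deposited table, an adjusted p below 0.05 was given for 19 of the 47, against 9.53% of all genes tested here, and those 19 were among the 22. On the 5 libraries whose reads could be recovered, edgeR called 20 members, against 12.8% of the genes it tested. DESeq2 called 13, against 6.76% of the genes it tested, and 1 of the 13 was higher and 12 lower, against 3.07% and 3.69%.

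**Figure D1:**
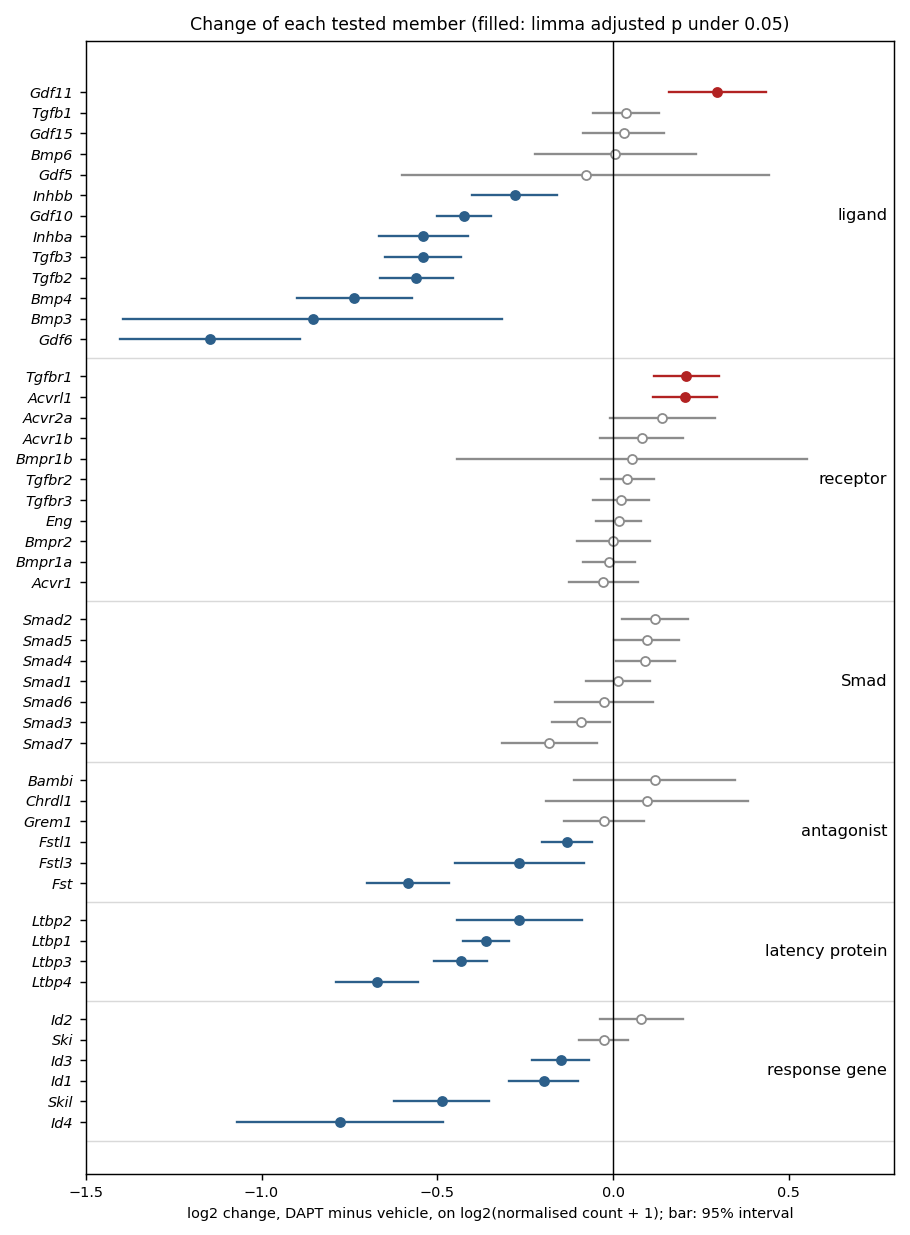
Log2 change (DAPT minus vehicle, on log2(normalised count + 1)) of the 47 tested members by class, with points for the fitted change, bars for its 95% interval and filled points for a limma adjusted p below 0.05. Gdf6 at -1.15 lies furthest to the left and all 4 latency proteins lie left of 0, while the intervals of most receptors lie close to 0.

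Of the members that passed with a mean of at least 50, the 3 with the largest change were Gdf6, Id4 and Bmp4, all lower under DAPT, and promoters were read for Id4 and Bmp4 and not for Gdf6. The 250 bases before the annotated start of Id4 (GRCm38.p6, chr13:48260866-48261115, plus strand) and of Bmp4 (GRCm38.p6, chr14:46390670-46390919, minus strand) are shown from RefSeq, because these genes rank next to Gdf6 by size of change. Capitals mark matches on either strand to CAGAC, bound by Smad3 and Smad4, to GGCGCC, bound by Smad1 and Smad5, or to TGGGAA, bound by the Notch partner RBPJ.
Id4 promoter: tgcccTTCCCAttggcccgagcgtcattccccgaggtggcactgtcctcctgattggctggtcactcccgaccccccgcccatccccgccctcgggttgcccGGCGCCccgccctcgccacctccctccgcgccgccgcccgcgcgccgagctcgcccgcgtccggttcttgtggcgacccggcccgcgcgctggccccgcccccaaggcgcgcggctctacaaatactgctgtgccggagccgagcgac
Bmp4 promoter: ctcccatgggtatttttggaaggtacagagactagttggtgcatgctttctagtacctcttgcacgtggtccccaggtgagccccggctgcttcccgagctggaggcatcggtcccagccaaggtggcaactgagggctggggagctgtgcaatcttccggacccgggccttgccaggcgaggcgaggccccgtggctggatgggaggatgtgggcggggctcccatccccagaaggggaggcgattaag
The Id4 window held 1 match to TGGGAA and 1 to GGCGCC and none to CAGAC, and no 2 matches overlapped. The Bmp4 window held no match to any of these letters. Among 32851 promoter windows of the same length in the RefSeq table, 42.2% held CAGAC, 9.59% GGCGCC and 21.6% TGGGAA. The Id4 window was 75.6% and the Bmp4 window 63.2% G or C, against a median of 52.4%, and such matches are a description of the sequence only.

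There were 16 ligand genes, and 3 of them were below the filter. Among the 13 tested, 8 fell, Gdf11 rose and 4 did not pass, with a median log2 change of -0.42. The called share was 69.2%, against 18.1% of all genes tested. Among the 3 TGF-beta isoforms, Tgfb2 and Tgfb3 fell and Tgfb1 did not pass. Tgfb2, the isoform known best from heart and great vessel development, had normalised counts of 689.9, 739.7 and 779 in DAPT cells, against 1129, 1104 and 1022 in vehicle cells. It was 1.47-fold lower under DAPT (limma log2 change -0.56 ± 0.051 SE, adjusted p = 1.14e-08), and the lowest vehicle library was well above the highest DAPT library. Tgfb3, known for its part in palate and lung development, was at 432, 456 and 432 in DAPT cells, against 630.2, 639 and 652 in vehicle cells. The 2 groups were again apart, with Tgfb3 1.45-fold lower (limma log2 change -0.54 ± 0.053 SE, adjusted p = 3.8e-08). Tgfb1, the isoform that circulates in platelets and is induced on injury, was at 1023, 1024 and 1057 in DAPT cells, against 962, 1070.1 and 998 in vehicle cells. Its groups overlapped, and the 95% interval of its log2 change ran from -0.06 to 0.13 (limma adjusted p = 0.662).

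Per kilobase, Tgfb1 was the most abundant of these isoforms in all 6 libraries. Tgfb1 made up 57.9%, 56.4% and 57.2% of the summed isoform level per kilobase in DAPT cells, against 45.5%, 48.3% and 47.3% in vehicle cells. The share of Tgfb2 was 21.2%, 22.1% and 22.8% in DAPT cells, against 29.0%, 27.0% and 26.3% in vehicle cells. The summed level itself was 610.1, 627 and 638 normalised reads per kilobase in DAPT cells, against 729.9, 765 and 729 in vehicle cells. Each of these quantities separated the groups without overlap. They are sums and shares over chosen members and were given no test.

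**Figure D2:**
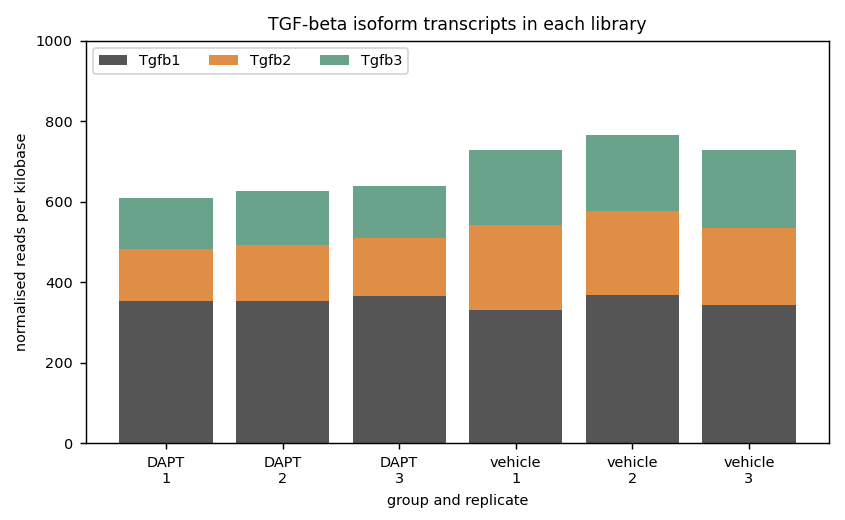
Normalised reads per kilobase of Tgfb1, Tgfb2 and Tgfb3, stacked, in each of the 3 DAPT and 3 vehicle libraries. The Tgfb1 segment is of similar height in both groups, between 332 and 369.7, while the summed height is 610.1 to 638 in DAPT cells and 729 to 765 in vehicle cells.

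Both expressed activin subunit genes fell. Inhba, whose product forms activin A, was at 317, 302 and 306 in DAPT cells, against 435, 465 and 445 in vehicle cells. It was 1.45-fold lower (limma log2 change -0.54 ± 0.061 SE, adjusted p = 4.27e-07), with the groups well apart. Inhbb, the subunit of activin B, was at 751, 673 and 796 in DAPT cells, against 913, 951 and 831 in vehicle cells. The fall of Inhbb was smaller, 1.21-fold (limma log2 change -0.28 ± 0.058 SE, adjusted p = 0.00108), and the highest DAPT library came close to the lowest vehicle library.

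Among BMP and growth differentiation factor genes the clearest falls were those of Gdf6, Bmp4 and Gdf10. Gdf6, a BMP-type ligand known from joint and skull development, was at 62.5, 63.1 and 55.5 in DAPT cells, against 137, 120.1 and 148 in vehicle cells. It was the member with the largest change, 2.21-fold lower (limma log2 change -1.15 ± 0.124 SE, adjusted p = 2.02e-07), and every DAPT library lay far below the lowest vehicle library. Bmp4, a BMP that signals in vessel and bone formation and whose promoter is printed above, was at 202, 182 and 192 in DAPT cells, against 325, 345 and 293 in vehicle cells. It was 1.67-fold lower (limma log2 change -0.74 ± 0.079 SE, adjusted p = 1.81e-07) without overlap.

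Gdf10, also called BMP3B, was the most abundant ligand gene per kilobase, at 594 in DAPT cells and 798 in vehicle cells (normalised reads per kilobase). Its normalised counts were 2767, 2755 and 2851 in DAPT cells, against 3957, 3702 and 3587 in vehicle cells. That is 1.34-fold lower (limma log2 change -0.42 ± 0.037 SE, adjusted p = 7.24e-09), with the DAPT libraries close together and the vehicle libraries more spread. Bmp3, an atypical BMP known as an inhibitor of other BMPs in bone, was near the filter at 11.4, 13.7 and 11.9 in DAPT cells, against 22.6, 27.6 and 19.5 in vehicle cells. The DAPT values lay below all vehicle values (limma log2 change -0.85 ± 0.261 SE, adjusted p = 0.0236). The Bmp3 call was lost without DAPT replicate 1 or 3, without vehicle replicate 1 or 2, without the filter and in edgeR, with adjusted p from 0.0217 to 0.117 over the limma and edgeR alternatives that tested it.

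Gdf11, a ligand close to myostatin that signals through Smad2 and Smad3, was the 1 ligand gene that rose. It was at 479.5, 456 and 422 in DAPT cells, against 383, 337 and 384 in vehicle cells. The lowest DAPT library was above the highest vehicle library, and Gdf11 was 1.23-fold higher (limma log2 change 0.30 ± 0.066 SE, adjusted p = 0.00227). Gdf15, a stress-induced hormone-like ligand, was the second most abundant ligand gene per kilobase and was at 794, 934 and 890.5 in DAPT cells, against 804, 906 and 852 in vehicle cells. Its groups overlapped and the interval of its log2 change ran from -0.08 to 0.15 (limma adjusted p = 0.774). Bmp6 and Gdf5 also did not pass, with log2 intervals from -0.22 to 0.24 and from -0.60 to 0.44. Genes on the opposite strand share 6.23% of the exon bases of Bmp6, in the case of the abundant Txndc5, and 40.3% of those of Gdf5, so both are uncertain. Bmp2, Bmp5 and Bmp7 were below the filter, at no more than 4.95 normalised counts in any library.

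**Figure D3:**
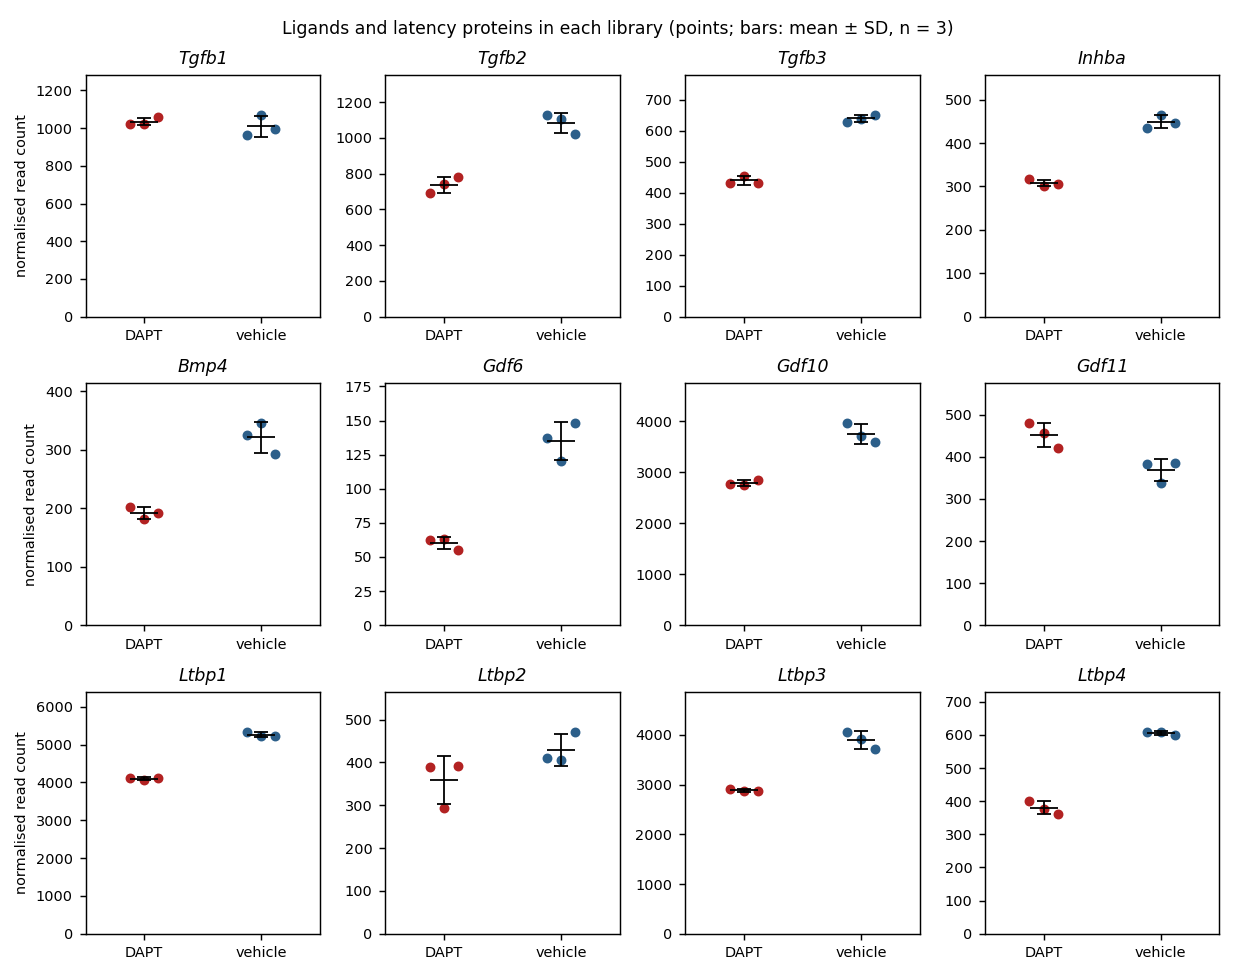
Normalised read counts of 8 ligand genes and the 4 latency protein genes in each library, DAPT left of vehicle, with points for libraries and bars for mean ± SD (n = 3). Every gene apart from Tgfb1 shows groups that do not overlap, and for Ltbp2 the DAPT library at 294 stands below the other two, at 389 and 392.

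All 4 genes of latent TGF-beta binding proteins, which bind the latent complex or build microfibrils, fell. Over all genes tested 8.91% fell. Ltbp3, the most abundant per kilobase and a partner of latent TGF-beta, was at 2912, 2863 and 2871 in DAPT cells, against 4057, 3924 and 3710.2 in vehicle cells. Ltbp3 was 1.35-fold lower (limma log2 change -0.43 ± 0.036 SE, adjusted p = 2.76e-09), with no overlap. Ltbp1, which also binds the latent complex, was at 4118, 4060.4 and 4114 in DAPT cells, against 5332, 5237 and 5223 in vehicle cells. Its libraries lay close together within each group, and it was 1.28-fold lower (limma log2 change -0.36 ± 0.032 SE, adjusted p = 6.97e-09). Ltbp4, known for its part in elastic fibre assembly, was at 401, 378 and 362 in DAPT cells, against 609, 609 and 600.4 in vehicle cells. It changed most of the 4, 1.59-fold lower (limma log2 change -0.67 ± 0.056 SE, adjusted p = 3.25e-09).

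Ltbp2, a microfibril protein that does not bind latent TGF-beta, was at 389, 294 and 392 in DAPT cells, against 409, 406 and 471 in vehicle cells. The groups did not overlap, but DAPT replicate 2 was well below the other DAPT libraries (limma log2 change -0.27 ± 0.086 SE, adjusted p = 0.0325). The Ltbp2 call was lost without DAPT replicate 2, where the log2 change was -0.13, without vehicle replicate 3, with robust empirical Bayes and in DESeq2, with adjusted p from 0.0081 to 0.294 over all alternatives. A gene annotated on the opposite strand shares 11.3% of the exon bases of Ltbp2, and the use of strand in counting is not given in the sources used here. Summed per kilobase, the Ltbp genes were at 807, 786 and 797 in DAPT cells, against 1092, 1065 and 1034 in vehicle cells. The ratio of this sum to that of Tgfb1, Tgfb2 and Tgfb3 was 1.32, 1.25 and 1.25 in DAPT cells and 1.50, 1.39 and 1.42 in vehicle cells, so the latency genes were lower beside the isoforms as well, in values that were not tested.

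Among the 12 receptor genes 11 were tested, 2 rose, 0 fell and 9 did not pass, with a median log2 change of 0.04. The called share of 18.2% is close to the 18.1% of all genes tested. Tgfbr1, the type I receptor of TGF-beta, was at 976, 1051 and 1041 in DAPT cells, against 904, 872 and 878 in vehicle cells. The DAPT values lay above all vehicle values (limma log2 change 0.21 ± 0.045 SE, adjusted p = 0.00153). Acvrl1, the type I receptor also called ALK1, known from endothelium, was at 916, 929 and 949.9 in DAPT cells, against 816, 789 and 819 in vehicle cells. Its groups did not overlap and it was 1.15-fold higher (limma log2 change 0.21 ± 0.044 SE, adjusted p = 0.00159). Of the endothelial markers, Vwf, Tek and Kdr were tested and did not pass (limma adjusted p = 0.343, 0.413 and 0.73). The Vwf groups did not overlap, at 22.1 to 31.7 in DAPT cells and 16.8 to 21.6 in vehicle cells. The summed normalised count of all 8 endothelial markers was 596 to 618 in DAPT cells and 583 to 640.2 in vehicle cells. Most of that sum is Kdr, with means of 529 and 541. The part of endothelial cells in the change of Acvrl1 was not tested. DESeq2 on 5 libraries called neither Tgfbr1 nor Acvrl1 (adjusted p = 0.116 and 0.143), while under the other alternatives, in limma and edgeR, both passed with adjusted p from 0.00107 and from 0.00132 upward.

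The most abundant receptor genes did not pass. Eng, the co-receptor endoglin, was the highest per kilobase at 1153 in DAPT cells and 1140.2 in vehicle cells. Its normalised counts were 8650.1, 8421 and 8614 in DAPT cells, against 8554, 8416 and 8428 in vehicle cells. The groups overlapped, with a log2 interval from -0.05 to 0.08 (limma adjusted p = 0.783). Tgfbr2, the type II receptor of TGF-beta, was at 6651, 6919 and 7004 in DAPT cells, against 6882, 6856 and 6275 in vehicle cells. The log2 interval of Tgfbr2 ran from -0.04 to 0.12 (limma adjusted p = 0.505). For Tgfbr3, the co-receptor betaglycan, and for the BMP receptors Bmpr1a and Bmpr2 the log2 intervals ran from -0.06 to 0.10, from -0.09 to 0.06 and from -0.10 to 0.10. The receptor genes Acvr1, Acvr1b and Acvr2a had log2 intervals from -0.13 to 0.07, from -0.04 to 0.20 and from -0.01 to 0.29. Orc4, on the opposite strand, shares 7.84% of the exon bases of Acvr2a and had a mean normalised count of 511, so Acvr2a is uncertain. Bmpr1b, at 18.0 to 32.7 in all libraries, had a log2 interval from -0.44 to 0.55. Acvr2b was below the filter, at no more than 9.48.

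**Figure D4:**
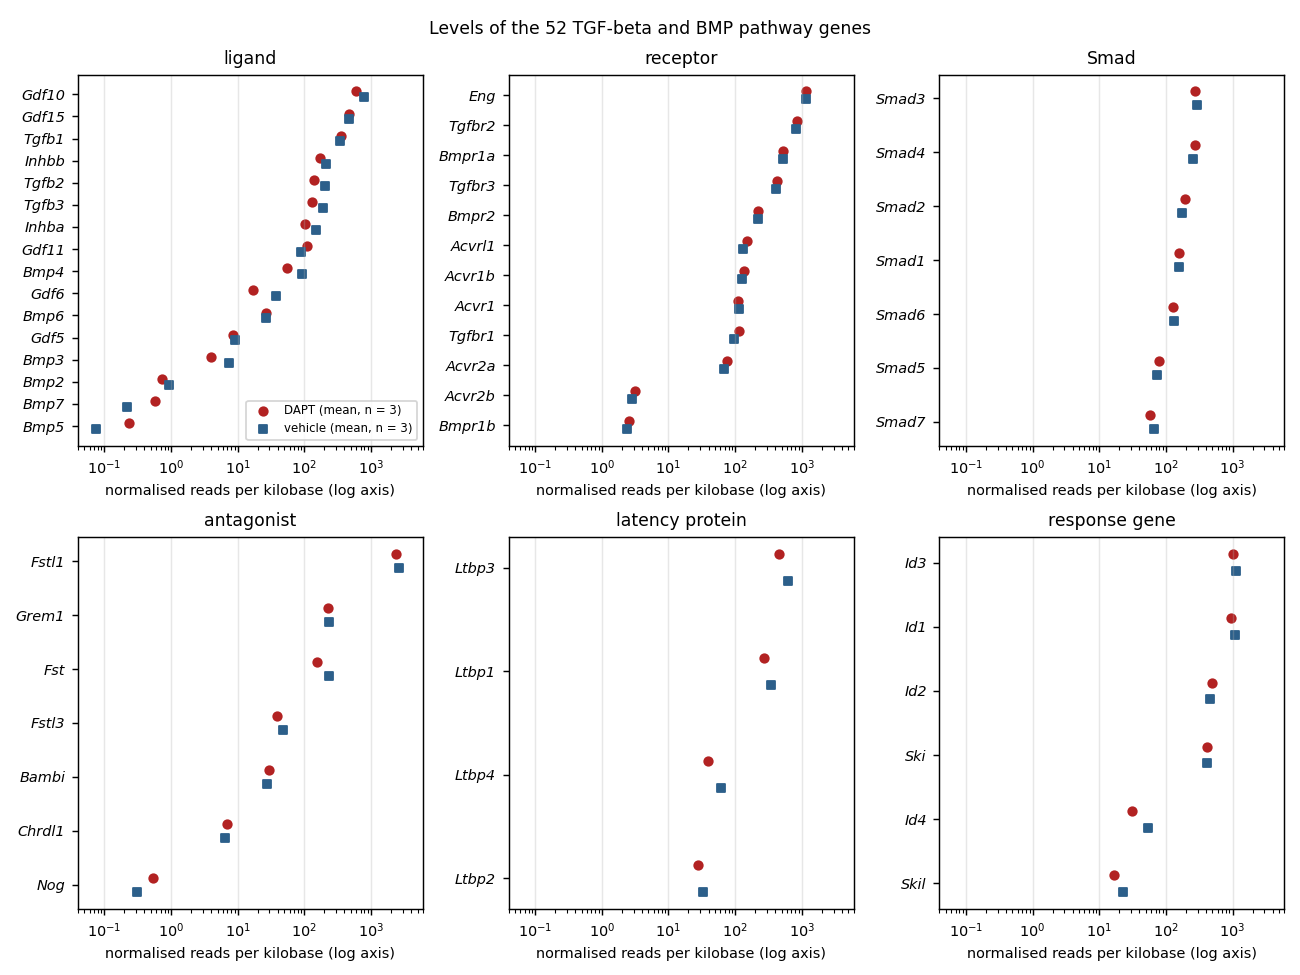
Mean normalised reads per kilobase (log axis, n = 3 per group) of the 52 members by class, DAPT drawn above vehicle for each gene. Fstl1, Eng, Id3 and Id1 are the highest, and Bmp2, Bmp5, Bmp7 and Nog lie at or below 1 read per kilobase.

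No Smad gene passed in limma: 5 of the 7 had an unadjusted p below 0.05, against 30.0% of all genes tested, and edgeR and DESeq2 on 5 libraries called 0. Smad3, a carrier of TGF-beta signals, was at 1602, 1549 and 1537 in DAPT cells, against 1749, 1614 and 1636 in vehicle cells. Its DAPT values lay below its vehicle values, with a log2 change of -0.09 (95% interval -0.18 to -0.01, limma adjusted p = 0.12). Smad4, the partner of all receptor Smads, was at 1547, 1515 and 1653 in DAPT cells, against 1492, 1471 and 1458 in vehicle cells. Here the DAPT values lay above the vehicle values, with a log2 change of 0.09 (95% interval 0.01 to 0.18, limma adjusted p = 0.125). Smad2, the other carrier of TGF-beta signals, had a log2 change of 0.12 (95% interval 0.03 to 0.21, limma adjusted p = 0.0694).

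Smad7, the inhibitory Smad that TGF-beta induces, was nearest to the threshold at 399.9, 410.4 and 402 in DAPT cells, against 417, 458 and 505 in vehicle cells. Its groups did not overlap, and its log2 change was -0.18 (95% interval -0.32 to -0.05, limma adjusted p = 0.0555). Without vehicle replicate 1 Smad7 passed (limma adjusted p = 0.0081, log2 change -0.25), and over all alternatives its adjusted p ran from 0.0081 to 0.484. Smad6, the inhibitory Smad of the BMP branch, and Smad1 and Smad5, the carriers of BMP signals, had log2 intervals from -0.17 to 0.11, from -0.08 to 0.10 and from 0.0027 to 0.19.

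Secreted or decoy antagonists numbered 7, of which 6 were tested, 3 fell and 3 did not pass. The called share was 50.0%, against 18.1% of all genes tested. Fst, follistatin, which binds and blocks activins, was at 481, 471 and 423 in DAPT cells, against 664, 686 and 710.2 in vehicle cells. Fst was 1.50-fold lower with the groups well apart (limma log2 change -0.58 ± 0.057 SE, adjusted p = 3.77e-08). The ratio of Inhba to Fst per kilobase was 0.642, 0.626 and 0.707 in DAPT cells and 0.641, 0.662 and 0.613 in vehicle cells, so that the activin gene and its antagonist stood in overlapping ratios in the 2 groups. Fstl1, a secreted glycoprotein of the follistatin family, was the most abundant of all members per kilobase, at 2413 in DAPT cells and 2646 in vehicle cells. Its normalised counts were 14445, 14503 and 14336 in DAPT cells, against 16593, 15752 and 15109 in vehicle cells. The fall was small, 1.10-fold (limma log2 change -0.13 ± 0.034 SE, adjusted p = 0.00833). The Fstl1 call was lost with quantile normalisation, where the log2 change was -0.062, and in DESeq2, with adjusted p from 0.000437 to 0.225 over the alternatives.

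Fstl3, which binds activins as follistatin does, was at 156, 159.9 and 155 in DAPT cells, against 179, 185 and 205 in vehicle cells. The DAPT values were close together and below the vehicle values (limma log2 change -0.27 ± 0.089 SE, adjusted p = 0.0375). This call was lost without any 1 of the DAPT replicates, without vehicle replicate 2 or 3, and in edgeR and DESeq2, with adjusted p from 0.0342 to 0.494 over the alternatives. Prss57, on the opposite strand, shares 59.2% of the exon bases of Fstl3 and had a mean normalised count of 136, so reads of the pair may not be told apart. Grem1, gremlin, an antagonist of BMPs, was at 977, 862 and 1024 in DAPT cells, against 942, 934 and 1032 in vehicle cells. Its groups overlapped, with a log2 interval from -0.14 to 0.09 (limma adjusted p = 0.812). Bambi, a decoy receptor without a kinase, was at 172, 145 and 129.8 in DAPT cells, against 152, 127 and 130.2 in vehicle cells. Bambi and the BMP antagonist Chrdl1 did not pass, with log2 intervals from -0.11 to 0.35 and from -0.19 to 0.38, and Nog, noggin, was at no more than 2.10 in any library.

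Among the 6 response genes 4 fell and 2 did not pass. The called share was 66.7%, against 18.1% of all genes tested. Id4, which encodes an inhibitor of DNA binding that pairs with and blocks basic helix-loop-helix factors, was the least abundant Id gene and was at 55.0, 56.8 and 44.6 in DAPT cells, against 82.8, 91.3 and 94.7 in vehicle cells. It was 1.71-fold lower without overlap (limma log2 change -0.78 ± 0.142 SE, adjusted p = 0.000296), and its promoter is printed above. Id1, the Id gene best known as a direct target of BMP signals, was at 1050.0, 1170.0 and 1121 in DAPT cells, against 1228, 1247 and 1357 in vehicle cells. Id1 was 1.15-fold lower (limma log2 change -0.20 ± 0.047 SE, adjusted p = 0.00412). Id3, another BMP target, was at 1994, 1875 and 1909 in DAPT cells, against 2038, 2154 and 2215 in vehicle cells. It was 1.11-fold lower (limma log2 change -0.15 ± 0.039 SE, adjusted p = 0.00914). Both Id1 and Id3 had DAPT values below all vehicle values.

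Id2, which encodes a further inhibitor of the same family, did not pass. Its normalised counts were 633, 590.3 and 626 in DAPT cells, against 568, 548 and 636 in vehicle cells, with overlapping groups and a log2 interval from -0.04 to 0.20 (limma adjusted p = 0.378). Skil, which encodes SnoN, a repressor of Smads that TGF-beta induces, was at 272, 270.4 and 259.5 in DAPT cells, against 384, 382 and 360.4 in vehicle cells. It was 1.40-fold lower with the groups well apart (limma log2 change -0.49 ± 0.066 SE, adjusted p = 5.8e-06). Ski, the related repressor, was at 4030.3, 3917 and 4008 in DAPT cells, against 4138, 4136 and 3909 in vehicle cells. Its groups overlapped, with a log2 interval from -0.10 to 0.04 (limma adjusted p = 0.658). The Id3 call was lost without DAPT replicate 2 (adjusted p = 0.0699, with 0.00162 to 0.182 over the alternatives), and DESeq2 on 5 libraries called none of Id1, Id3 and Id4 (adjusted p = 0.0867, 0.182 and 0.0754).

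Pathway genes outside the members also fell more often than they rose. From a list of 77 such genes by role, 54 were tested: 18 fell, 6 rose and 30 did not pass, and their median log2 change was -0.07. That is 44.4% called and 33.3% lower, against 18.1% called, 9.22% higher and 8.91% lower over all genes tested. Among 8 genes known as TGF-beta targets 5 fell, Acta2, Tagln, Ctgf, Col1a1 and Tsc22d1, Tgfbi rose, and Junb and Klf10 did not pass. Acta2, smooth muscle alpha-actin, was at 272, 261 and 222 in DAPT cells, against 509.8, 476 and 576 in vehicle cells. It was 2.07-fold lower (log2 change -1.05, limma adjusted p = 4.23e-10), and Tagln, transgelin, was 1.87-fold lower (log2 change -0.90, limma adjusted p = 2.76e-11). Tgfbi, a matrix protein named for its induction by TGF-beta, was at 171, 176 and 175 in DAPT cells, against 103, 93.7 and 77.0 in vehicle cells. It was 1.91-fold higher (log2 change 0.93, limma adjusted p = 1.04e-06), with all DAPT values above all vehicle values. The Tsc22d1 call was lost without DAPT replicate 1 or 3 (limma adjusted p = 0.16 and 0.0971) and without vehicle replicate 2 or 3 (limma adjusted p = 0.14 and 0.0688). It was also lost without the filter (limma adjusted p = 0.0534), in edgeR (adjusted p = 0.0911) and in DESeq2 (adjusted p = 0.324). The adjusted p of Tsc22d1 ran from 0.0149 to 0.324 over its alternatives.

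Of 7 tested genes listed under latency and activation of TGF-beta 6 fell, Fbn1, Emilin1, Thbs1, Lrrc32, Itgb8 and Dcn, and Itgav did not pass. That is 85.7% called, against 18.1% of all genes tested. The Itgb8 call was lost without vehicle replicate 1 (limma adjusted p = 0.056, within 0.0061 to 0.286 over its alternatives), and that of Dcn without DAPT replicate 1 and with quantile normalisation (limma adjusted p = 0.124 and 0.0647, within 0.00092 to 0.124). With robust empirical Bayes Fbn1 did not pass (limma adjusted p = 0.0633, the highest over its alternatives). Among 4 tested processing proteases Pcsk6 and Bmp1 fell and Furin and Tll1 did not pass. Pcsk6, a convertase that cleaves precursors of the family, was at 60.6, 54.7 and 48.5 in DAPT cells, against 95.0, 85.3 and 87.7 in vehicle cells. It was 1.63-fold lower (log2 change -0.70, limma adjusted p = 0.000632). DESeq2 on 5 libraries called neither Pcsk6 (adjusted p = 0.111) nor Lrrc32 (adjusted p = 0.0847), and both passed under all other alternatives that tested them. Itgb8 (DESeq2 adjusted p = 0.286) and Dcn (DESeq2 adjusted p = 0.075) were not called by it either. The BMP co-receptor gene Rgma fell (1.48-fold, limma adjusted p = 4.95e-08) and Rgmb did not pass.

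Among 16 tested intracellular regulators 4 rose, 1 fell and 11 did not pass. That is 31.2% called and 6.25% lower, against 18.1% called and 8.91% lower over all genes tested. Smad9, the third carrier of BMP signals, was at 198, 190.4 and 213 in DAPT cells, against 122, 161 and 155 in vehicle cells. It was 1.38-fold higher without overlap (log2 change 0.46, limma adjusted p = 0.0019). The kinase gene Map3k7, the ubiquitin ligase gene Wwp1 and the phosphatase gene Ppm1a also rose, while Pmepa1, a TGF-beta-induced inhibitor of Smad signals, fell. Among 7 further antagonists the BMP binders Crim1, Bmper and Chrd fell and Nbl1 rose, the last at 760.0, 768 and 786 in DAPT cells, against 605, 619 and 696 in vehicle cells. DESeq2 on 5 libraries did not call Smad9 (adjusted p = 0.147), Wwp1 (0.124), Ppm1a (0.0922), Nbl1 (0.0666) or Chrd (0.23), and each of these passed under all other alternatives that tested it. Of 3 tested BMP target genes, Atoh8, Runx2 and Msx1, limma called 0, with 0 at an unadjusted p below 0.05 and 0 in edgeR and DESeq2, and the same held for the 7 tested ligands outside the members.

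**Figure D5:**
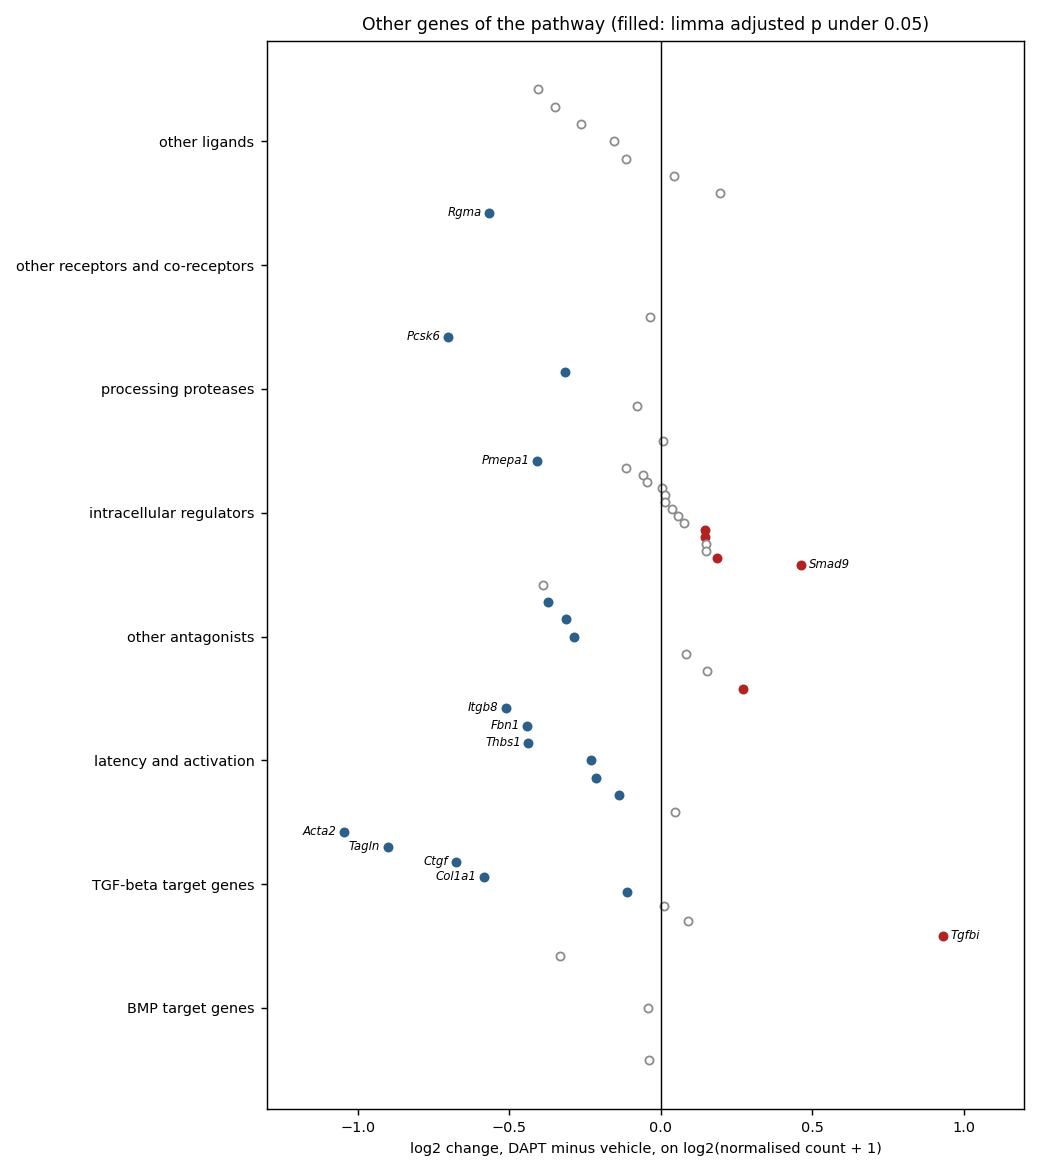
Log2 change (DAPT minus vehicle, on log2(normalised count + 1)) of the 54 tested pathway genes outside the members, by role; filled points have a limma adjusted p below 0.05 and those beyond 0.4 in size are named. TGF-beta target genes run from Acta2 at -1.05 to Tgfbi at 0.93, and most intracellular regulators lie near 0.

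Markers on several cell type lists, that of smooth muscle among them, differed between the same groups. Of tested markers 85.7% passed on the mesothelial, 80.0% on the fibroblast, 28.6% on the smooth muscle and 33.3% on the leukocyte list. On the endothelial list 0 of 3 tested markers passed. Of all genes tested 18.1% passed. Of 10 mesothelial markers 7 were tested and 6 fell, and their summed normalised count was 2787 to 2912 in DAPT cells, against 4633 to 4733 in vehicle cells, while Muc16, Krt8 and Krt18 were at no more than 6.01 in any library. Of 10 markers of adventitial fibroblasts 6 fell, 2 rose and 2 did not pass. Their summed normalised count of 30802 to 32456 in DAPT cells overlapped that of 29874 to 32109.9 in vehicle cells. Most of that sum is Ly6a, which rose, Dcn, which fell, and Cd34, which did not pass, with DAPT means of 10868, 9985 and 7196. The marker sums add normalised counts that were not divided by gene length, so abundant genes dominate them. The summed level of the 10 smooth muscle markers was 1826 to 2021 in DAPT cells and 2538 to 2733 in vehicle cells, and the 2 of 7 tested markers that fell were Acta2 and Tagln. Among 7 leukocyte markers 3 were tested and Cd68 rose, with a summed level of 419.8 to 435 in DAPT cells and 347 to 399.95 in vehicle cells. Dcn, of the genes listed under latency and activation, is also on the fibroblast list. Acta2 and Tagln are on both the TGF-beta target and the smooth muscle list, so their falls are counted in each. The part of these cell types in the changes of the ligand, latency and response genes was not tested.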

How the data were processed

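The authors deposited 1 table of 37309 genes holding for each of 6 libraries a signal, which is the gene's reads over a size factor, together with a log2 ratio, an adjusted p-value and a gene length. From the values, 100% of the signals were whole multiples of 1 read within 0.01 reads. TopHat2 2.0.4, HTSeq 0.5.4p3, DESeq 1.16.0 and mm9 are named in the submitters' processing notes with no role for any of them. The gene annotation, the filters and the use of strand are not given in the sources used here. Columns C1 to C3 were read as control and I1 to I3 as inhibitor, a reading that the labels leave unstated. The deposited log2 ratio had the sign of the I mean over the C mean in 12210 of 12213 genes with both means above 50. This gives the direction of that ratio. It cannot show which letter stands for DAPT, since the same columns enter both sides. Deposited RPKM values were not used, and 3 replicates per group entered every limma test.

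Under R 4.3.3, limma 3.58.1 with a trended prior was fitted to log2(normalised count + 1) of the 14906 genes with at least 10 in at least 3 libraries, two-sided, with Benjamini-Hochberg adjustment over all of them. edgeR 4.0.16 (1941 genes called) and DESeq2 1.42.0 (928 genes called) were run on the recovered reads of 5 libraries, since the size factor of DAPT replicate 3, 1.01, is too near 1 for recovery to be accepted. Replicate pairs with recovered reads differed by more than sampling noise (chi-square per gene of 1.46 to 3.23). The members, gene lists and tests were chosen with earlier results of these data known, and a few listed items are not reported here. Values are given for members that passed and for the 2 most abundant per class that did not. Promoters are from the RefSeq table for GRCm38.p6, which held 35 of the 52 members. Overlapping gene models are from the mouse GENCODE annotation for GRCm38, used for neighbours only.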

Additional observations from a re-analysis of the deposited data

How the results depend on the processing

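Of the 22 called members 13 stayed past the threshold under each of the 15 alternatives that tested them, 9 lost the call under at least 1, and 0 changed sign. Of the 25 that did not pass, 1, Smad7, passed under an alternative. DESeq2 on 5 libraries called 13 members, 1 higher and 12 lower, 928 genes over the whole table and 14 of the other pathway genes; it had fewer samples and its own filter, and the cause was not tested. Without 1 library at a time, members called ran from 19 to 22, members higher stayed at 3, members lower ran from 16 to 19, genes called from 1868 to 2718 and other pathway genes called from 22 to 25. Same-numbered libraries did not deviate together (correlations 0.0267, -0.0175 and 0.0099), and not every library correlated best with its own number; with the replicate block 23 members and 2732 genes were called, Smad7 being the added member (adjusted p = 0.0475). No symbol of the members was repeated, so the alternative that sums repeated rows gave no value; nor did Bmp3 under a filter of 50 or in DESeq2. Quantile normalisation moved the median change of all genes to 0.00725. With 10702548 to 14503665 reads per library, Bmp2, Bmp5, Bmp7, Acvr2b and Nog were too low to compare.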

Other observations

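Ligand genes outside the members were mostly low. Lefty1, an antagonist of Nodal that is better known from the embryo, was the most abundant of them per kilobase, with normalised counts of 126, 136 and 121 in DAPT cells, against 142, 148 and 136 in vehicle cells. Bmp8a was at 74.9, 84.2 and 101 in DAPT cells, against 60.2, 84.1 and 83.2 in vehicle cells and Inha, the inhibin alpha subunit, at 45.5, 30.5 and 36.6 in DAPT cells, against 43.3, 54.0 and 38.1 in vehicle cells. The groups did not overlap for Lefty1 (log2 change -0.16, limma adjusted p = 0.316), overlapped for Bmp8a and Inha, and neither these nor Gdf7, Gdf2, Lefty2 and Bmp8b passed.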
